A study of Rattus norvegicus with 14 samples.

Results

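The BCL2 family decides whether mitochondria release the proteins that start apoptosis, and 10 of its genes were followed here by name: Bcl2, Bcl2l1, Mcl1, Bax, Bak1, Bbc3, Pmaip1, Bcl2l11, Bid and Bad. Of these 10 genes, 9 had a row among the 16816 gene rows of the count table and 8 had counts. Bbc3 was not analysed here. PCCL3 is a rat thyroid follicular cell line. PPFP cells are PCCL3 cells stably transfected with a human PAX8-PPARG fusion protein (PPFP) that carries a myc tag, and EV cells are PCCL3 cells stably transfected with the empty vector. Both were cultured for 16 hours with 1 µM pioglitazone, a synthetic PPARG agonist, or with its DMSO vehicle (untreated) before RNA was isolated. Each of the 4 groups (EV cells and PPFP cells, without and with pioglitazone) had 3 RNA-seq libraries, which the series describes as independent experiments. The labels give 1 cell line of each kind and do not say whether it was a clone, so an effect of PPFP and other differences between these lines cannot be told apart. Both lines grew in medium with thyrotropin, insulin and hydrocortisone.

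Apoptosis through the mitochondrion is set by binding between 3 kinds of BCL2 family protein. Bcl2, Bcl-xL (from Bcl2l1) and Mcl1 are anti-apoptotic and hold the others in check, Bax and Bak1 are the effectors that open the outer mitochondrial membrane to release cytochrome c, and the BH3-only proteins Bim (from Bcl2l11), Bid, Bad, Puma (from Bbc3) and Noxa (from Pmaip1) sense damage and lost growth signals. Much of their control lies in protein stability, phosphorylation and cleavage, which RNA-seq does not measure. Bim is a known transcriptional target of forkhead (FOXO) factors in cells that lose survival signals.

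Upstream sequence is shown for the BH3-only genes Bcl2l11, Bad and Bid, whose RNA levels differed between the cell lines. RefSeq (GRCr8) promoters were matched for 8 of the 10 genes, with 11 promoters in all. Each sequence is the 250 bases before the annotated start, 5' to 3' along the gene's own strand: Bcl2l11 at chr3:135819792-135820041 on the plus strand, Bad at chr1:213562864-213563113 on the plus strand and Bid at chr4:155808320-155808569 on the minus strand. Capitals mark the 9 matches of the motifs searched on both strands, which do not overlap each other.
Bcl2l11: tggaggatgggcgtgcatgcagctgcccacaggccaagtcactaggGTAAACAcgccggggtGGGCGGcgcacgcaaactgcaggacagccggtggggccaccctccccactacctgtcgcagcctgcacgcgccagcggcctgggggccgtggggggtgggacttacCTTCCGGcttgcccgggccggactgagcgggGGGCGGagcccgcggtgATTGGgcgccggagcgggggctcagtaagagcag
Bad: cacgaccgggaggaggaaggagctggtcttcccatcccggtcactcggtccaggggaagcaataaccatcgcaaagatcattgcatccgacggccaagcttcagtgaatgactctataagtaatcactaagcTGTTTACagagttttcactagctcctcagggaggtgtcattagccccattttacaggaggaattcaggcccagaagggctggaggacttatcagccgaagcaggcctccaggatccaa
Bid: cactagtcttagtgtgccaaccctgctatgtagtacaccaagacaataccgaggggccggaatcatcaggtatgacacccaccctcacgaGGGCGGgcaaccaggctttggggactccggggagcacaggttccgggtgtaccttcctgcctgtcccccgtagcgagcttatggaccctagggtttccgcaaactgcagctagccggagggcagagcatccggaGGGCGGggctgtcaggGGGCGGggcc

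A forkhead motif (GTAAACA or its reverse complement) began 204 bases before the Bcl2l11 start and 118 bases before the Bad start, and no other promoter of these genes held it. In all 33469 RefSeq promoters of 300 bases, 3.78% held this motif. The Bcl2l11 sequence also held 2 GC boxes (GGGCGG), an ETS motif (CCGGAAG) and a CCAAT box, and the Bid sequence held 3 GC boxes. GC boxes stood in 33.1% of all promoters and in 6 of the 11 here, the ETS motif in 8.75% of all and in 4 of the 11 (2 of the 4 of Bcl2l1 and those of Bcl2l11 and Mcl1), and the CCAAT box in 37.5% of all and in 3 of the 11 (2 of Bcl2l1 and that of Bcl2l11). The nuclear receptor core hexamer AGGTCA stood in 16.2% of all promoters and in 0 of these 11. These are letter matches in a short window, not sites where a factor was shown to bind.

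Library totals ran from 23724703 to 35240176 counts. Pparg, whose counts cannot separate the fusion transcript from the rat gene, was measured in CPM, counts scaled to a common library size with TMM factors. Without pioglitazone, EV cells had 1.61 ± 0.32 and PPFP cells 53.6 ± 6.56 CPM of it (SD, n = 3), and with pioglitazone 1.90 ± 0.80 and 57.0 ± 5.54 CPM. The 8 thyroid markers summed to between 9995 and 14101 CPM in every library, while the fibroblast list stayed at or under 34.5 CPM with Col3a1 and Dcn at 0, the macrophage list at or under 7.13 CPM, and the endothelial list at or under 0.201 CPM with Cdh5 at 0. Among these markers Cd68, with 13 to 35 counts per library, was higher in PPFP cells (log2 fold change 0.86, adjusted p = 0.048, without and 1.18, adjusted p = 0.016, with pioglitazone). With pioglitazone Pdgfra was higher (0.46, adjusted p = 0.014) and Cd14 lower (-0.44, adjusted p = 0.038). Pdgfra made up most of the fibroblast sum and was not near the floor, averaging 21.8 CPM in EV and 29.4 CPM in PPFP cells with the drug. With a replicate block the calls of Cd68 without pioglitazone and of Cd14 were lost (adjusted p = 0.12 and 0.11). The thyroid sum was lower in PPFP cells with pioglitazone (9995 to 10185 CPM) than without (13333 to 14041 CPM), and the part of these markers in the results below was not tested. Pax8 is the gene of the fusion's other partner, and its counts likewise cannot separate the fusion transcript from the rat gene. It averaged 738 and 728 CPM in EV cells without and with pioglitazone, and 688 and 545 CPM in PPFP cells. PPFP cells with pioglitazone, replicates 2 and 3, lay much closer together than any other replicate pair: the chi-square per degree of freedom of their counts was 1.70, against 17.8 to 113 in the other 11 pairs. Their counts differed by more than sampling noise, and both were kept as the labels give them, but this does not show that they came from separate cultures. If they are closely related libraries, the SDs and tests of this group at n = 3 understate its spread, and calls lost with the pair summed into 1 library are named below. Levels below are CPM, and tests are edgeR quasi-likelihood tests with Benjamini-Hochberg adjustment over all genes tested, called at an adjusted p under 0.05. In these bulk RNA samples, fewer cells of a kind and less RNA per cell cannot be told apart. Levels were not ranked between genes, since no transcript lengths were at hand.

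**Figure D1:**
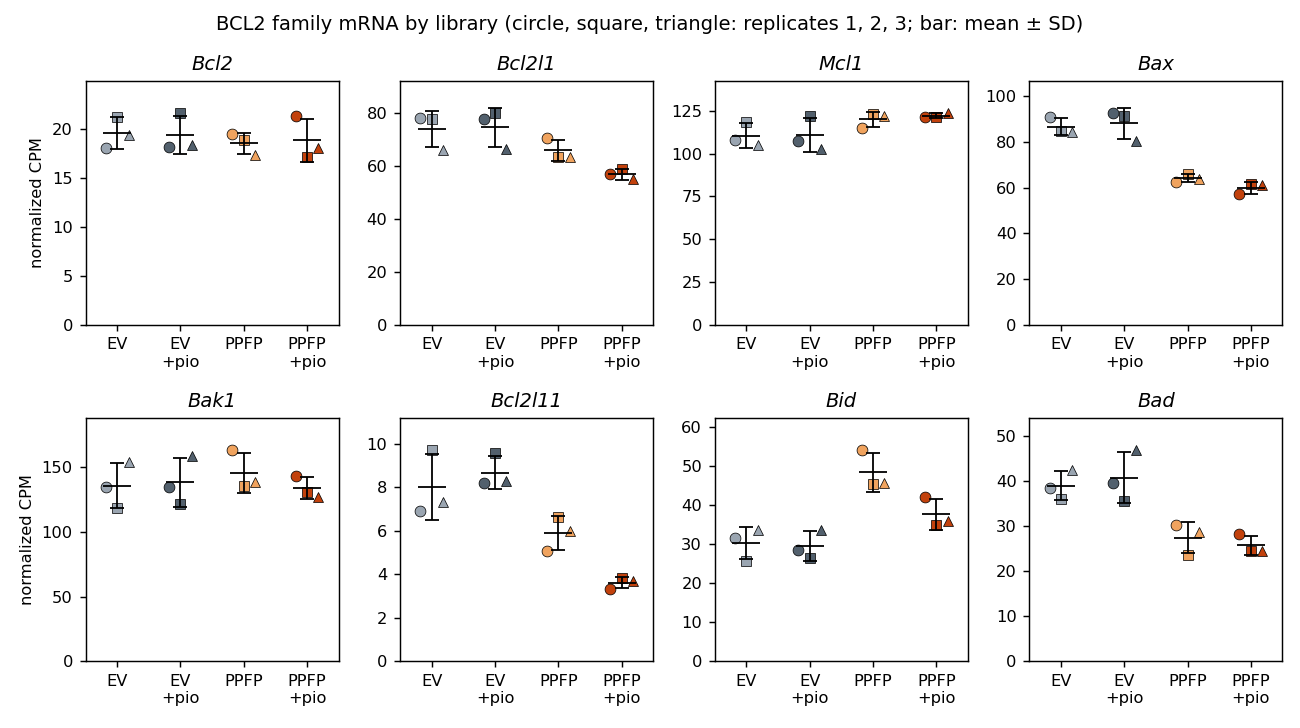
Normalized CPM (vertical axes, from 0) of the 8 BCL2 family genes with counts, in EV and PPFP cells without and with pioglitazone (+pio). Points are libraries (replicates 1, 2 and 3) and bars the mean ± SD of 3. Bax and Bad stand lower and Bid stands higher in every PPFP library than in any EV library, and Bcl2l11 is lowest in PPFP cells with pioglitazone, between 3.33 and 3.84 CPM.

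Without pioglitazone, PPFP cells had lower Bax and Bad and higher Bid than EV cells, and no member differed by more than 2-fold. Of the 8 members tested, 3 were called (1 higher, 2 lower), while 45.2% of all 10264 genes tested were called in the same comparison (22% higher, 23.1% lower) and 14.6% also passed 2-fold. The share of members called was thus not above that of genes in general. With both cell lines on pioglitazone, 5 of 8 were called (1 higher, 4 lower) against a background of 52.7% (26.3% higher, 26.4% lower), and 1 of them, Bcl2l11, passed a 2-fold change, as did 19.7% of all genes. Within PPFP cells, pioglitazone called 1 member, Bcl2l11, which fell, against 14.8% of all genes (7.13% lower), and within EV cells it called 0 members and 0% of all genes. In EV cells, 0 members and 0.158% of all genes had an unadjusted p under 0.05, and edgeR's exact test and DESeq2 also called 0 members. The comparisons share libraries and are therefore not independent of each other.

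Of the 3 anti-apoptotic genes, Bcl2 and Mcl1 were called in no comparison and Bcl2l1 in 1 when no replicate block was used. Bcl2, the founding survival gene of the family, stood in the absence of pioglitazone at 18.1, 21.3 and 19.4 CPM in the EV libraries and at 19.5, 18.9 and 17.4 CPM in the PPFP libraries. Under the drug these were 18.2, 21.7 and 18.4 CPM and 21.4, 17.1 and 18.1 CPM. All 4 groups overlapped. The log2 fold change of PPFP cells versus EV cells was -0.06 without pioglitazone (95% interval -0.30 to 0.19) and -0.02 with it (-0.30 to 0.27).

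Mcl1, a short-lived survival protein, read 108, 119 and 105 CPM in untreated EV libraries and 115, 123 and 122 CPM in untreated PPFP libraries. Treated EV libraries read 107, 122 and 103 CPM and treated PPFP libraries 121, 122 and 124 CPM. EV replicate 2 reached into the PPFP range in both conditions. The log2 fold change was 0.14 (SE 0.085, adjusted p = 0.22) without and 0.17 (SE 0.084, adjusted p = 0.12) with pioglitazone, and neither was called. Without EV replicate 2 the latter was called, at 0.25 (adjusted p = 0.027).

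Bcl2l1, which encodes the survival protein Bcl-xL, was called lower in PPFP cells with both lines on pioglitazone and was not called without it. Untreated EV libraries had 78.1, 77.5 and 65.9 CPM and untreated PPFP libraries 70.4, 63.4 and 63.5 CPM, and these groups overlapped. Treated EV libraries had 77.6, 80.0 and 66.2 CPM and treated PPFP libraries 56.7, 58.9 and 54.8 CPM, and they did not overlap. The log2 fold change was -0.15 (SE 0.10, adjusted p = 0.28) without pioglitazone and -0.37 (SE 0.095, adjusted p = 0.015) with it. Without EV replicate 1 the latter was not called (adjusted p = 0.063).

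Bax, the effector that moves from cytosol to mitochondria, was lower in PPFP cells in both conditions. EV cells had 90.7, 84.9 and 84.1 CPM without and 92.7, 91.4 and 80.4 CPM with pioglitazone. PPFP cells had 62.5, 66.1 and 63.6 CPM without and 57.0, 61.7 and 61.1 CPM with it. Every PPFP library thus lay below every EV library. The log2 fold change was -0.41 (SE 0.079, adjusted p = 0.0041) without and -0.53 (SE 0.089, adjusted p = 0.0022) with pioglitazone, and both calls held under all alternatives tried.

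Bak1, the effector resident in the mitochondrial membrane, was not called in either comparison of the lines. Its levels were 134, 119 and 154 CPM in untreated EV and 163, 135 and 138 CPM in untreated PPFP libraries. With pioglitazone they were 134, 122 and 158 CPM and 143, 131 and 127 CPM. The groups overlapped in each comparison, and the log2 fold changes of 0.13 (95% interval -0.14 to 0.39) and -0.02 (-0.27 to 0.23) were both near 0. Whether the fold changes of Bax and Bak1 differ from each other was not tested.

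Among the BH3-only genes, Bid rose and Bad fell in PPFP cells, and Bcl2l11 fell furthest where pioglitazone was added. Bid, which caspase 8 cleaves to link death receptors to mitochondria, had 31.6, 25.8 and 33.7 CPM in untreated EV and 54.3, 45.5 and 45.6 CPM in untreated PPFP libraries. These groups were far apart, with a log2 fold change of 0.70 (SE 0.12, adjusted p = 0.0028). With pioglitazone, EV cells had 28.5, 26.5 and 33.7 CPM and PPFP cells had 42.1, 34.9 and 36.0 CPM. The difference there was 0.38 (SE 0.12, adjusted p = 0.030), and it lost its call in 7 of 15 alternatives, with adjusted p from 0.015 to 0.10 over all of them. Summing the close pair of PPFP libraries gave an adjusted p of 0.065.

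Bad, whose protein is held inactive by survival kinases, read 38.4, 36.1 and 42.5 CPM in untreated EV and 30.2, 23.5 and 28.7 CPM in untreated PPFP libraries. With the drug it read 39.7, 35.7 and 47.0 CPM and 28.2, 24.6 and 24.6 CPM. No PPFP library reached the EV range. The log2 fold change was -0.48 (SE 0.12, adjusted p = 0.012) without and -0.63 (SE 0.12, adjusted p = 0.0034) with pioglitazone, and both calls held under all alternatives tried.

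Bcl2l11, which encodes the BH3-only protein Bim, rested on low counts, with 88 in the lowest library. EV cells had 6.93, 9.74 and 7.33 CPM without and 8.18, 9.56 and 8.29 CPM with pioglitazone. PPFP cells had 5.06, 6.65 and 5.99 CPM without the drug, just under the EV range, and 3.33, 3.84 and 3.71 CPM with it, below all other libraries. The order of the group means was therefore EV with pioglitazone (8.68 CPM), EV without (8.0 CPM), PPFP without (5.90 CPM) and PPFP with pioglitazone (3.63 CPM), of which only the first pair overlapped.

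Between the lines, the log2 fold change of Bcl2l11 was -0.42 without pioglitazone (SE 0.19, adjusted p = 0.11), which was not called although the groups did not overlap. Non-overlapping groups were seen for 4 of 8 members and for 56% of all genes in that comparison. With pioglitazone the fold change was -1.23 (SE 0.14, adjusted p = 0.00038), so that the level dropped by 57.3% against EV cells. This call held under all alternatives, with adjusted p up to 0.0028. In the annotation only Acoxl overlaps Bcl2l11, and since the library kit does not mark strand and the counting strand is not given in the sources used here, reads of the pair cannot be told apart where they overlap.

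**Figure D2:**
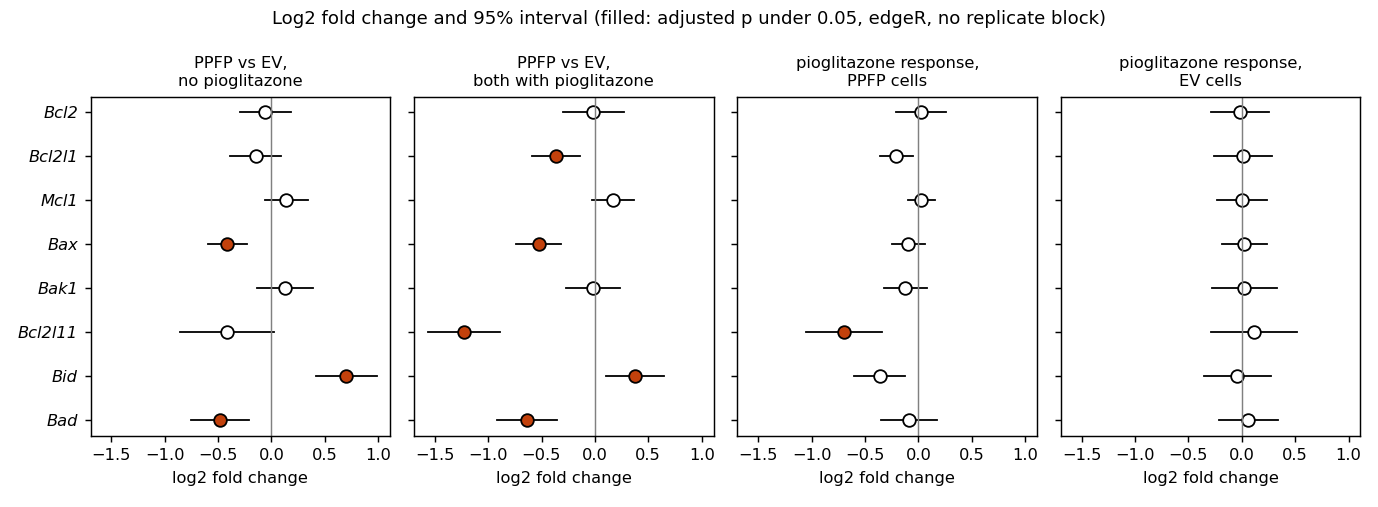
Log2 fold change (horizontal axis) of each BCL2 family gene in 4 comparisons, with its 95% interval as a line. Filled points passed an adjusted p of 0.05 in edgeR without a replicate block. Filled points number 3, 5, 1 and 0 from left to right.

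Pmaip1, which encodes Noxa, had 0 counts in all 12 libraries. A floor of 3 counts per library corresponds to at most 0.127 CPM, so Noxa RNA above that level would have been seen if its reads were counted. No fold change was computed for it.

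The response to pioglitazone was next compared within each cell line. Libraries with the same replicate number deviated together within a line (r of 0.57 to 0.82 in PPFP cells and 0.61 to 0.83 in EV cells), so the numbers were taken to pair the samples there, and each test is also given with replicate number as a blocking term. In PPFP cells the match by number was not exclusive, since replicate 3 with pioglitazone correlated with replicate 2 without it at 0.63 and with its own number at 0.57. In PPFP cells, all 3 pairs were lower with the drug for Bcl2l1, Bax, Bak1, Bcl2l11 and Bid. The share of all genes that moved one way in all 3 pairs was not computed, and the replicate block called 51.6% of all genes in this response. Replicates 2 and 3 with pioglitazone are the close pair of libraries, so the 3 pairs may not be separate repeats. The log2 differences of Bcl2l11 were -0.79 to -0.61, and those of Bid -0.38 to -0.34. In EV cells no member moved the same way in all 3 pairs, and the log2 fold changes ran from -0.04 (Bid) to 0.11 (Bcl2l11).

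Bcl2l11 fell by 0.70 on the log2 scale in PPFP cells on pioglitazone (SE 0.15, adjusted p = 0.025). Without the block this call was lost with the close pair of libraries summed (adjusted p = 0.083) and when any of PPFP replicates 2 and 3 without the drug or replicates 1, 2 and 3 with it was left out (adjusted p = 0.062 to 0.10). Bid stood at -0.36 (SE 0.099) and was not called (adjusted p = 0.058), nor was Bcl2l1 at -0.21 (SE 0.064, adjusted p = 0.084). Without the block both were called by DESeq2 (adjusted p = 0.013 and 0.023, against 20% of all genes). Both were also called in edgeR scaled by library size alone (adjusted p = 0.024 and 0.033, against 14.7%). Of 17 alternatives, blocked ones included, Bid was called in 6 and Bcl2l1 in 5. With the replicate block 4 of 8 members were called, all lower, where 51.6% of all genes were called: Bcl2l11 (adjusted p = 1.8e-05), Bid (adjusted p = 9.6e-07), Bcl2l1 (adjusted p = 0.00088) and Bak1 at -0.12 (adjusted p = 0.014). Without PPFP replicate 2 with pioglitazone the block called 5 (against 45.6% of all genes), and without replicate 3 it called 4 (against 40.3%). Bcl2 at 0.02 and Mcl1 at 0.03 were not called in either fit, and their sign turned under library-size scaling alone.

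**Figure D3:**
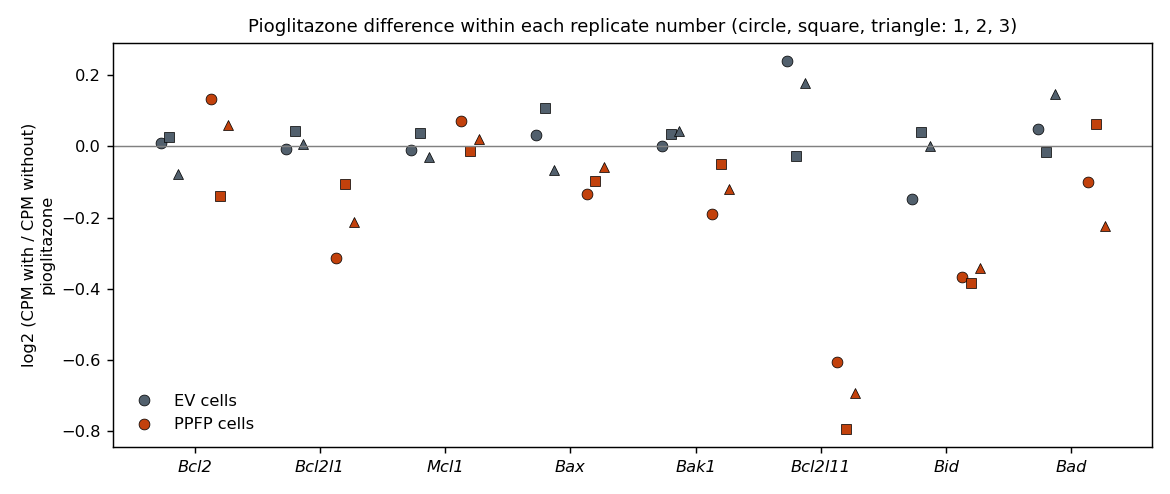
Log2 ratio of CPM with over without pioglitazone (vertical axis) within each replicate number, for EV cells and PPFP cells. The 3 PPFP values of Bcl2l11 lie between -0.79 and -0.61 and those of Bid between -0.38 and -0.34, while the EV values of both genes lie on either side of 0.

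A difference in drug response between the lines needs its own test, the interaction term over all 12 libraries. It called 0 of 8 members without the block, against 2.64% of all genes, and 1 member, Bcl2l11, had an unadjusted p under 0.05, as did 13.3% of all genes. DESeq2 called Bcl2l11 (adjusted p = 0.024). For Bcl2l11 the response in PPFP cells minus that in EV cells was -0.83 on the log2 scale (SE 0.23, adjusted p = 0.095). With replicate numbers blocked within each line, 4 members were called where 34.3% of all genes were: Bcl2l11 at -0.83 (SE 0.14, adjusted p = 0.00039), Bid at -0.33 (adjusted p = 0.0015), Bcl2l1 at -0.23 (adjusted p = 0.0073) and Bak1 at -0.15 (adjusted p = 0.024). In group means Bid thus stood above EV cells in both conditions and lay closer to the EV level with the drug, while Bcl2l11 lay further from it. Without the block neither the Bid response in PPFP cells (adjusted p = 0.058) nor the Bid interaction (adjusted p = 0.46) was called.

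Ratios of counts within a library do not depend on the scaling between libraries. They compare an effector or activator with the survival gene it is bound by, and only differences between groups can be read from them. The log2 ratio of Bax to Mcl1 was -0.35 ± 0.12 in EV cells and -0.91 ± 0.031 in PPFP cells without pioglitazone (SD, n = 3), and -0.33 ± 0.10 and -1.03 ± 0.055 with it. Bcl2l11 to Mcl1 stood at -3.80 ± 0.18 and -4.35 ± 0.15 without, and at -3.67 ± 0.042 and -5.08 ± 0.10 with pioglitazone. Both ratios were lower in every PPFP library than in any EV library. Bax to Bcl2 was also lower, at 1.79 ± 0.097 against 2.15 ± 0.17 without the drug. Bax to Bcl2l1 stood at -0.036 ± 0.12 in PPFP cells against 0.23 ± 0.11 in EV cells without pioglitazone, and at 0.077 ± 0.076 against 0.24 ± 0.045 with it, where both genes were lower, and the lines did not overlap in either condition. Only Bax and Bcl2l11 served as numerators, and both had lower means in PPFP cells. No ratio was formed with Bad, which was lower, Bid, which was higher, or Bak1, which was not called. These ratios therefore do not give the balance of the whole family. How often ratios of other gene pairs separate the lines was not computed. In CPM, 56% of all genes did not overlap between the lines without pioglitazone.

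**Figure D4:**
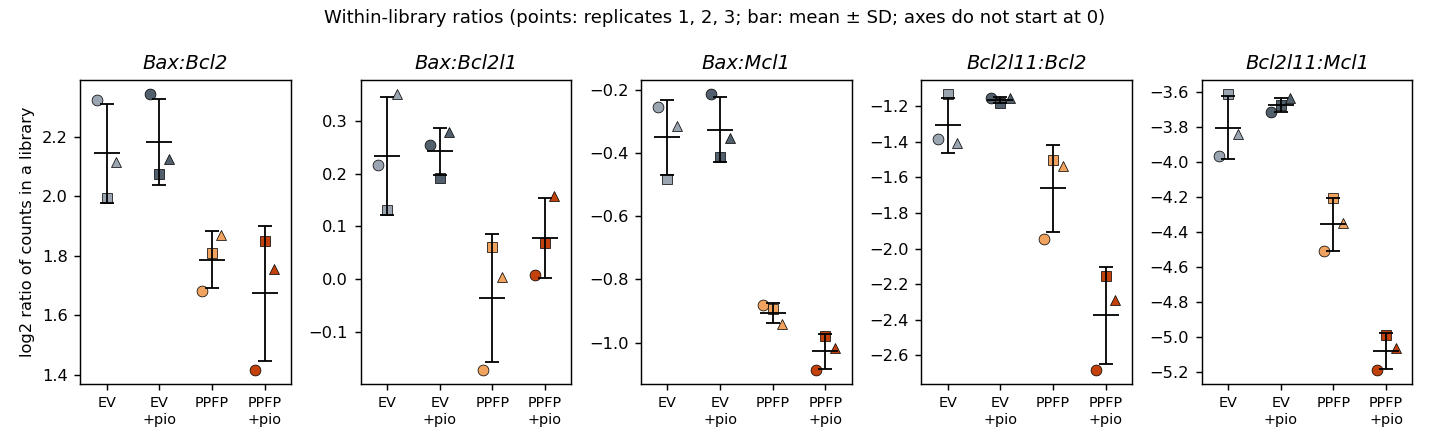
Log2 ratio of the counts of 2 genes within each library (vertical axes, which do not start at 0), in EV and PPFP cells without and with pioglitazone (+pio). Points are libraries and bars the mean ± SD of 3. Bax:Mcl1 and Bcl2l11:Mcl1 lie lower in every PPFP library than in any EV library, and Bcl2l11:Mcl1 lies lowest with pioglitazone, at -5.08 on average.

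Further genes of the family were examined from a list of 11, of which 8 were tested. Without pioglitazone 2 were higher and 1 lower in PPFP cells, with it 3 were higher and 2 lower, and within PPFP cells pioglitazone raised 2 and lowered 1. Bmf, a BH3-only gene like Bcl2l11, was lower in PPFP cells, at -0.81 (SE 0.19, adjusted p = 0.012) without the drug and -1.77 (SE 0.14, adjusted p = 7.0e-05) with it. Its levels were 41.1, 44.2 and 33.2 CPM in untreated EV libraries, 16.5, 24.5 and 25.8 CPM in untreated PPFP libraries and between 8.28 and 11.004 CPM in treated PPFP libraries. In PPFP cells its response to the drug was -1.14 (SE 0.21, adjusted p = 0.016), a call lost in 4 of 17 alternatives, among them the close pair summed (adjusted p = 0.052).

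Bcl2l13, a mitochondrial outer membrane protein with a role in mitophagy, rose in PPFP cells from 32.4, 34.2 and 31.8 CPM to 52.6, 57.0 and 55.5 CPM with pioglitazone (log2 fold change 0.75, SE 0.066, adjusted p = 0.0012). In EV cells it stayed between 22.5 and 24.4 CPM in all 6 libraries. The interaction was called (0.76, SE 0.096, adjusted p = 0.0020). Bcl2l14 was low in EV cells, at 0.17 to 0.67 CPM, and stood at 1.28, 1.85 and 2.07 CPM in PPFP cells without and 4.61, 7.95 and 6.62 CPM with the drug (log2 fold change 1.89, SE 0.28, adjusted p = 0.0069). Bnip3, a BH3-like gene known for hypoxia and mitophagy, was higher in PPFP cells with both lines on pioglitazone (1.02, SE 0.17, adjusted p = 0.0019).

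The genes that act before and after the family were taken from 8 lists, the further family members included, with 82 genes of which 73 were tested. Without pioglitazone 29 of 73 (39.7%) differed between the lines, 16 higher and 13 lower in PPFP cells, and with pioglitazone 35 of 73 (47.9%), 20 higher and 15 lower. Both shares were under the 45.2% and 52.7% of all genes. Pioglitazone called 12 of 73 in PPFP cells (16.4%, against 14.8%) and 0 in EV cells. With the replicate block it called 49 of 73 in PPFP cells, against 51.6% of all genes, and with the close pair of libraries summed it called 5, against 6.98%. The 5 were Bcl2l13, Bcl2l14, March5, Pim3 and Xbp1, while Bmf, Cflar, Tnfsf10, Dffa, Aen, Pim1 and Akt1 lost their call (adjusted p = 0.052 to 0.16). The lists were chosen with earlier results of these data known, and their counts describe these libraries only.

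Downstream of mitochondria, of 9 apoptosome and caspase genes 2 were higher and 3 lower in PPFP cells without the drug. Apaf1, the scaffold of the apoptosome, was higher (0.69, adjusted p = 0.018), and the DNA fragmentation genes Dffa (-0.44, adjusted p = 0.0043) and Dffb (-0.58, adjusted p = 0.012) were lower. Leaving out a library lost the call of Apaf1 in 3 of 14 alternatives (adjusted p = 0.051 to 0.055). With the drug 2 were higher and 4 lower, among them Cycs, the cytochrome c gene, at 0.87 (adjusted p = 0.0029), Casp9, the apoptosome's initiator caspase, at -0.41 (adjusted p = 0.0051) and Dffb at -0.66 (adjusted p = 0.0037). The list median was -0.02 without pioglitazone and -0.03 with it. Within PPFP cells pioglitazone called 1 of the 9, Dffa at 0.22 (adjusted p = 0.048), which lost its call in 12 of 17 alternatives.

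Among 11 tested inhibitor of apoptosis (IAP) genes and mitochondrial release factors, 3 were higher and 2 lower without pioglitazone. Aifm1, the apoptosis-inducing factor that also serves respiration, was higher at 0.80 (SE 0.15, adjusted p = 0.0036) and Birc3, which encodes cIAP2, at 0.87 (SE 0.19, adjusted p = 0.0069). Endog, a mitochondrial nuclease, was lower at -0.57 (adjusted p = 0.022), as was the channel gene Vdac2 at -0.39 (adjusted p = 0.022), and these calls were lost in 4 and 3 of 14 alternatives. With pioglitazone 3 were higher and 1 lower: Aifm1 at 1.08 (adjusted p = 0.0015), Xiap, a direct caspase inhibitor, at 0.34 (adjusted p = 0.022), Birc3 at 0.58 (adjusted p = 0.028) and Endog at -0.76 (adjusted p = 0.0064). The calls of Xiap and Birc3 were lost in 7 and 8 of 15 alternatives, among them the replicate block (adjusted p = 0.071 and 0.093) and the close pair summed (0.096 and 0.10). The drug called 0 of the 11 within PPFP cells, and 5 with the replicate block, where 51.6% of all genes were called.

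Bid is the link from death receptors, and of 8 tested genes of that pathway 2 were higher and 0 lower in PPFP cells in each condition. Tnfsf10, which encodes the death ligand TRAIL, was higher by 2.67 (SE 0.23, adjusted p = 9.2e-05) without and by 0.91 (SE 0.30, adjusted p = 0.037) with pioglitazone, and the latter call was lost in 8 of 15 alternatives, including the replicate block (adjusted p = 0.085) and the close pair summed (adjusted p = 0.067). Its levels were low, at 0.50, 0.64 and 0.82 CPM in untreated EV and 4.29, 3.70 and 4.39 CPM in untreated PPFP libraries. The drug lowered it in PPFP cells, at -1.07 (SE 0.19, adjusted p = 0.013), and the interaction was called (-1.78, SE 0.38, adjusted p = 0.033) but lost its call in 10 of 21 alternatives. With the close pair summed neither was called (adjusted p = 0.061 and 0.087). Cflar, whose product FLIP blocks caspase 8, was higher in PPFP cells by 0.59 (SE 0.094, adjusted p = 0.0017) without and by 0.93 (SE 0.089, adjusted p = 0.00015) with pioglitazone, and the drug raised it within PPFP cells by 0.37 (SE 0.058, adjusted p = 0.0087), which was not called with the close pair summed (adjusted p = 0.053).

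Genes of the DNA damage response, which also induces Bax, Bbc3 and Pmaip1, moved in both directions. Of 14 tested, 4 were higher and 1 lower without pioglitazone, and 4 higher and 2 lower with it. Perp, a gene of cell junctions, was higher by 1.87 (SE 0.095, adjusted p = 1.0e-05) and Mdm2, a ubiquitin ligase, by 0.69 (SE 0.083, adjusted p = 0.00048) without the drug. Btg2, an antiproliferative gene, was also higher (0.78, adjusted p = 0.013). Cdkn1a, the p21 cell cycle inhibitor, was lower, at -0.86 (SE 0.11, adjusted p = 0.00078) without and -1.09 (SE 0.15, adjusted p = 0.00072) with pioglitazone. With the drug Perp stood at 1.79 (adjusted p = 1.5e-05) and Mdm2 at 0.72 (adjusted p = 0.00049). Within PPFP cells the drug called 1 of 14, the nuclease gene Aen at 0.23 (adjusted p = 0.032), whose call was lost in 9 of 17 alternatives, and 10 of 14 with the replicate block, where 51.6% of all genes were called.

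FOXO factors, which drive Bcl2l11 in other cells, and the kinases that restrain them formed a list of 10. Without pioglitazone 3 were higher and 3 lower. Sgk1, a kinase that phosphorylates FOXO factors, was higher by 1.79 (SE 0.15, adjusted p = 8.5e-05) and Pim3, which phosphorylates Bad, by 0.56 (SE 0.11, adjusted p = 0.0055). Pim1, a related survival kinase, was lower, at -0.72 (adjusted p = 0.0084), and so was Foxo3, at -0.39 (adjusted p = 0.011), while Foxo1 was higher at 0.58 (adjusted p = 0.012). With both lines on the drug 4 were higher and 3 lower, including Pim3 at 1.68 (SE 0.12, adjusted p = 4.1e-05), Sgk1 at 1.43 (adjusted p = 0.00017), Foxo1 at 0.81 (adjusted p = 0.00091), Foxo3 at -0.35 (adjusted p = 0.015) and Pim1 at -1.42 (adjusted p = 0.00058). Within PPFP cells pioglitazone raised Pim3 by 1.06 (SE 0.10, adjusted p = 0.0016) and lowered Pim1 at -0.75 (adjusted p = 0.029) and Akt1, the central survival kinase, at -0.27 (adjusted p = 0.012). The calls of Pim1 and Akt1 were lost in 5 and 6 of 17 alternatives, among them the close pair summed (adjusted p = 0.084 and 0.074). The Pim3 interaction was called (1.10, SE 0.17, adjusted p = 0.0059).

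Of the genes that control Mcl1 turnover, 3 of 5 were tested. March5, a mitochondrial ubiquitin ligase, rose with pioglitazone in PPFP cells, from 123, 106 and 114 CPM to 190, 174 and 171 CPM (log2 fold change 0.64, SE 0.067, adjusted p = 0.0021), with an interaction of 0.64 (SE 0.11, adjusted p = 0.011), and was higher than in EV cells by 0.88 (adjusted p = 0.00013) with the drug. Btrc, a ubiquitin ligase subunit, was lower in PPFP cells, at -0.44 (adjusted p = 0.0050) without and -0.56 (adjusted p = 0.0019) with pioglitazone.

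The integrated stress response, which induces Bcl2l11 and Pmaip1 in stressed cells, was represented by 10 genes. Without pioglitazone 0 were higher and 2 lower in PPFP cells: the unfolded protein response factor Xbp1 at -0.61 (SE 0.092, adjusted p = 0.0014) and the stress-induced transcription factor Atf3 at -2.05 (SE 0.53, adjusted p = 0.016). With it Ppp1r15a, the phosphatase subunit that ends the response, was higher at 0.83 (adjusted p = 0.043), while Xbp1 at -1.01 (adjusted p = 0.00026) and the chaperone gene Hspa5 at -0.61 (adjusted p = 0.026) were lower. The calls of Ppp1r15a and Hspa5 were lost in 7 and 5 of 15 alternatives, among them the close pair summed (adjusted p = 0.12 and 0.082). Within PPFP cells pioglitazone called only Xbp1, at -0.43 (adjusted p = 0.018), but all 10 with the replicate block, 8 of them higher, where 51.6% of all genes were called. Replicates of a group differed widely in this list: Trib3, picked here after its values were seen, had 5.10, 54.4 and 60.3 CPM in untreated and 10.5, 99.97 and 104 CPM in treated PPFP libraries. PPFP replicate 1 was low in both conditions. In that replicate Bcl2l11 was lowest too, at 5.06 and 3.33 CPM, and the part of the stress genes in its values was not tested.

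**Figure D5:**
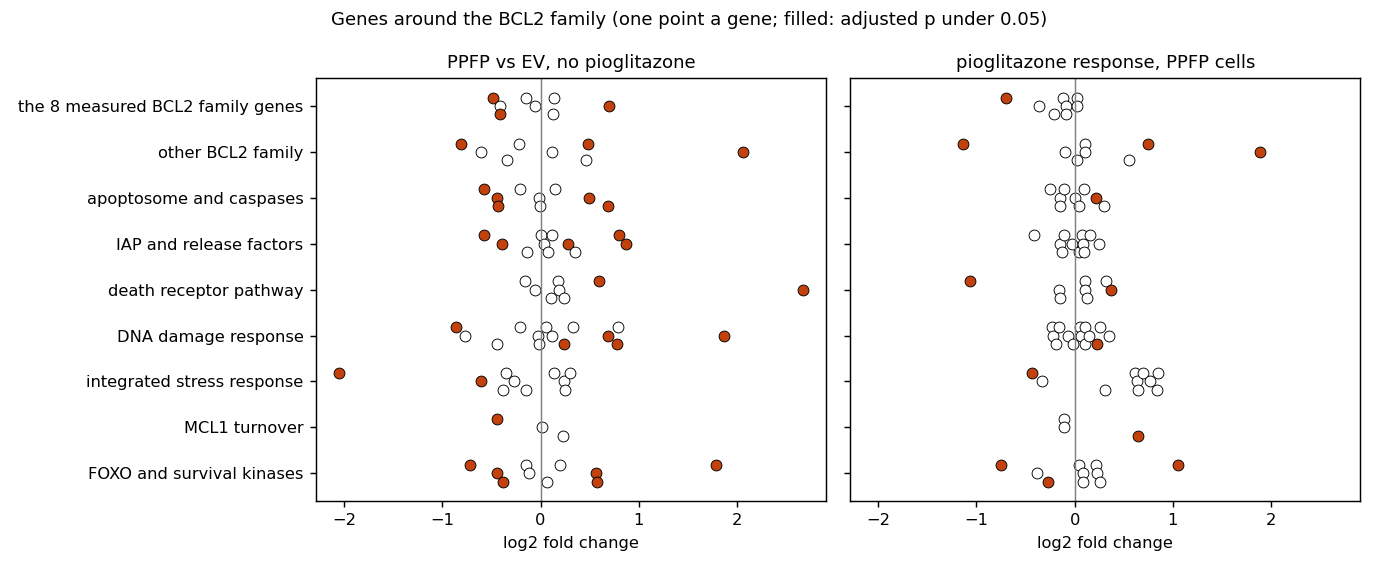
Log2 fold change (horizontal axis) of each tested gene in the BCL2 family set and in 8 lists around it. The left panel compares the lines without pioglitazone and the right panel shows how PPFP cells responded to the drug. Each point is a gene, spread vertically only to keep points apart, and filled points passed an adjusted p of 0.05 without a replicate block, 29 of 73 list genes on the left and 12 of 73 on the right.

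The genes most alike to Bid and to Bcl2l11 over the 12 libraries were looked up by Pearson correlation of log2 CPM, as a description. Nearest to Bid were Trappc9 (r = 0.987), Maged1 (0.983) and Gatm (0.980), and nearest to Bcl2l11 were Pld1 (0.985), Itpkb (0.973) and Myo18a (0.973). The 12 points share the split between the 2 cell lines, and 41 and 67 of 10481 other genes exceeded 0.95.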

How the data were processed

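RNA-seq libraries (TruSeq, not strand-marking) numbered 12, in 4 groups of 3. Per the labels, the authors processed reads with CASAVA 1.8.2, aligned them with TopHat2 2.0.11 to rn4 and counted whole reads per gene with HTSeq 0.6.1p1. The deposited values were raw counts, and totals of 23724703 to 35240176 per library limit precision for low genes such as Bcl2l11. The annotation and strand setting were not given in the sources used here. Peak lists in rn4 were not used, as no rn4 annotation was at hand.

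Counts were tested with edgeR 4.0.16 (R 4.3.3): filterByExpr, TMM scaling and the quasi-likelihood test, each comparison on its own 6 libraries, the interaction on all 12, with Benjamini-Hochberg adjustment over all genes tested. Intervals are 95%. The study used edgeR 3.2.4. Replicate numbers paired samples within a line, by the correlation of deviations (0.57 to 0.83), but not between lines (-0.41 to 0.35). The scripts were tested on simulated data. Members and gene lists were chosen with earlier results of these data known. All members were named, and from each list up to 4 called genes with the smallest adjusted p per comparison, plus Pparg as a label check and the 3 genes most alike to 2 members. Of the genes so picked, 2 are counted in their lists but are not reported here by name. Alternatives were DESeq2 1.42.0, edgeR's exact test, other scaling and filters, a replicate block and leaving out libraries. Those that sum 2 libraries, combine the block with a left-out library or concern the gene lists were added after seeing the data.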

Additional observations from a re-analysis of the deposited data

Results flagged for a closer look

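The difference in pioglitazone response between PPFP cells and EV cells was tested in edgeR at an adjusted p of 0.05. Without a replicate block it was called for 4 of 73 list genes and 0 of 8 members, against 2.64% of all genes, and the 4 were Bcl2l13 (interaction 0.76 on the log2 scale), Pim3 (1.10), March5 (0.64) and Tnfsf10 (-1.78). With replicate numbers blocked within each line it was called for 34 of 73 list genes and 4 of 8 members, against 34.3% of all genes. These members were Bcl2l11 (-0.83), Bid (-0.33), Bcl2l1 (-0.23) and Bak1 (-0.15), and none of them passed in edgeR without the block with all 12 libraries. Without the block Bcl2l11 passed in DESeq2 (adjusted p = 0.024), and in edgeR when EV replicate 2 without pioglitazone was left out (-0.999, adjusted p = 0.039). In EV cells pioglitazone called none of the 8 genes named here in edgeR.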

How the results depend on the processing

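Of 648 fold changes of members recomputed under alternatives, 565 kept their direction and side of the threshold, 14 lost a call, 29 gained 1 and 40 changed sign. Without pioglitazone, 3 members were called under all 14 alternatives. With pioglitazone, leaving out a library gave 3 to 5 members and 23 to 37 list genes, both lowest without EV replicate 1, as was the share of all genes (41.3%, against up to 55.3%). In the pioglitazone response of PPFP cells 3 members were called by DESeq2 (against 20% of all genes) and by library size alone (14.7%), 4 with the replicate block (51.6%), and 0 with the close libraries summed (6.98%). Leaving out a library gave 0 to 1 (6.24% to 17%), with 0 without PPFP replicate 2 or 3 of either condition. With the block, leaving out PPFP replicate 2 or 3 with pioglitazone gave 5 and 4 members (45.6% and 40.3%). For list genes these counts were 49 with the block, 41 and 43 with it and those replicates left out, 5 with the libraries summed, and 4 to 13 when a library was left out. For the interaction, DESeq2 called 1 member (5.73% of all genes), the block 4 (34.3%), the block without replicate 2 or 3 of PPFP cells with pioglitazone 4 and 3 (26.3% and 27.4%), and leaving out a library 0 to 1 (1.17% to 2.92%), with 1 without EV replicate 2, no pioglitazone. List genes in the interaction numbered 34 with the block and 30 and 31 with it and those replicates left out. Replicate numbers paired samples within a line, not between lines, where the block left 3 and 5 members called. Of 67 fold changes of list genes picked by the naming rule, 47 kept their call under every alternative run, and those lost in 8 or more alternatives were Dffa (12 of 17) and Aen (9 of 17) in the PPFP response, Birc3 and Tnfsf10 (8 of 15 each) between the lines with pioglitazone, and Tnfsf10 (10 of 21) in the interaction. The causes were not tested, except that left-out and summed libraries leave fewer samples.

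Sign changes were confined to fold changes near 0 that were not called. Bcl2 turned to 0.0079 (PPFP versus EV with pioglitazone, libraries summed), -0.026 (PPFP response, library size alone), -0.012 (PPFP response, block without replicate 3) and -0.015 (interaction, library size alone). Mcl1 turned to -0.021 (PPFP response) and -0.024 (interaction) under library size alone, and in EV cells to 0.0024 under library size alone and 0.000835 with all 12 libraries fitted together. Library size alone moved the median of all genes to -0.12 in PPFP versus EV cells with pioglitazone. Leaving out a library, Bcl2 ranged from -0.10 to 0.011 between the lines without pioglitazone and -0.10 to 0.068 with it, where Bak1 ranged from -0.10 to 0.059. In the PPFP response Bcl2 ranged from -0.078 to 0.083 and Mcl1 from -0.023 to 0.046. In EV cells the ranges were -0.10 to 0.047 (Bcl2), -0.064 to 0.095 (Bcl2l1), -0.080 to 0.052 (Mcl1), -0.020 to 0.089 (Bax), -0.082 to 0.12 (Bak1), -0.15 to 0.040 (Bid) and -0.047 to 0.15 (Bad). In the interaction they were -0.070 to 0.12 (Bcl2) and -0.047 to 0.10 (Mcl1).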
